A study of Mus musculus with 14 samples.

Results

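Peak lists from chromatin immunoprecipitation and sequencing (ChIP-seq) of BAP1 and RNF2 in mouse embryonic stem cells were laid over each other. They were compared in width, summit distance, placement, number and signal rank. Of the 14 samples of the series, 3 were chosen by their titles: the BAP1 ChIP of BAP1-C91A cells and both RNF2 ChIPs of wild-type cells, called library 1 and library 2 below. On chromosomes 1 to 19, X and Y these lists held 2395, 4038 and 28770 peaks, together 35203 of the 83165 peaks listed for the series.

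All cells were embryonic stem cells of C57BL/6 background, with a labelled age of embryonic day 3.5 to 4.5. All, wild-type cells included, had been kept for 4 days in 100 nM 4-OHT (4-hydroxytamoxifen) with 10 µM of the caspase inhibitor emricasan. The C91A cells carry Bap1 C91A over a null allele (C91A/-), per the labels' protocols, and were crosslinked with 2 mM disuccinimidyl glutarate for 30 min before chromatin extraction, a step the protocols do not give for the RNF2 samples. The anti-BAP1 and anti-RNF2 antibodies also differ. Wild-type cells had no BAP1 library and C91A cells no RNF2 library, so the factor, the genotype and the crosslinking cannot be told apart. BAP1 had 1 library and RNF2 had 2, and nothing in the labels says that these came from separate cultures. All values below are therefore descriptions of these libraries, without p-values.

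RNF2 (RING1B) is the ubiquitin ligase subunit of Polycomb repressive complex 1, which places ubiquitin on histone H2A at the promoters of silent developmental genes and can spread over broad chromatin domains. BAP1 is the catalytic subunit of the Polycomb repressive deubiquitinase, which removes that ubiquitin together with ASXL proteins and is also bound by forkhead factors FOXK1 and FOXK2. The C91A protein lacks the catalytic cysteine. In embryonic stem cells the Hox clusters and other lineage regulators are the best known Polycomb targets.

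BAP1 peaks were sorted into those overlapping RNF2 peaks of both libraries, of library 2 only, or of neither. The promoters below, from RefSeq on GRCm38.p6, show 1 promoter or 2 of each kind. They run 5′ to 3′ on the gene's strand, from 250 bases before to 50 after the start. Capitals mark matches, on either strand, to 5 short motifs: CCGGAAG (the core bound by ETS factors), GCCATNTT (YY1), CACGTG (the E-box), TGTTTAC (forkhead factors) and the NRF1 motif, a palindrome of 10 letters. None of these is contained in another. Nkx1-1 (chr5:33434041-33434340, minus strand), a homeobox gene, and Btbd8 (chr5:107437680-107437979, plus strand) had RNF2 in both libraries. Lsm7 (chr10:80855160-80855459, minus strand), an RNA-processing gene, had it in library 2 only. Ccdc28a (chr10:18234932-18235231, minus strand) and Vps26b (chr9:27030045-27030344, minus strand), a retromer gene, had none in the window, though at Vps26b a library 2 RNF2 summit lay 566 bp from the BAP1 summit.
Nkx1-1: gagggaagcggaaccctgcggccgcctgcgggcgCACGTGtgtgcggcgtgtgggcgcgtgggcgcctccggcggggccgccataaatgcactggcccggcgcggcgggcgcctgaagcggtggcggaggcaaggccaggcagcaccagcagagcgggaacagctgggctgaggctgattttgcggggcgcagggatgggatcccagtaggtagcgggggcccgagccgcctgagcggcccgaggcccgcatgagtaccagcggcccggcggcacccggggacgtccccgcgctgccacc
Btbd8: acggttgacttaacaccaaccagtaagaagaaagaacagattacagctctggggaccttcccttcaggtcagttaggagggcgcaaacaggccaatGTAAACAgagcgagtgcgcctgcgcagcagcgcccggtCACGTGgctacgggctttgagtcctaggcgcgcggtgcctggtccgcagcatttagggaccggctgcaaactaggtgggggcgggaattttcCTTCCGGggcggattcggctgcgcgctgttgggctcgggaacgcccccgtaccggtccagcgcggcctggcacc
Lsm7: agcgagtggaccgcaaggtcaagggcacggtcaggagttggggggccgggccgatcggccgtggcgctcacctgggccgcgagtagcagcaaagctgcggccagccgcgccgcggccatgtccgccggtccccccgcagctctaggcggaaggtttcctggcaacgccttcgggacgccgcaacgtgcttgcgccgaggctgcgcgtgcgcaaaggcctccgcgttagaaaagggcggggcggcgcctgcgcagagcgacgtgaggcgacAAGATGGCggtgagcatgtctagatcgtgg
Ccdc28a: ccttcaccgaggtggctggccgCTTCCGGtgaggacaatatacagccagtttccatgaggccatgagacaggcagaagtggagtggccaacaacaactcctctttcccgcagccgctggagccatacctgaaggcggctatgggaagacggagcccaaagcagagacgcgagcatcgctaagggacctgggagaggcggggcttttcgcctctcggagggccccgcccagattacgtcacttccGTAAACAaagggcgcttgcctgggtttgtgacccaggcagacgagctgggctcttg
Vps26b: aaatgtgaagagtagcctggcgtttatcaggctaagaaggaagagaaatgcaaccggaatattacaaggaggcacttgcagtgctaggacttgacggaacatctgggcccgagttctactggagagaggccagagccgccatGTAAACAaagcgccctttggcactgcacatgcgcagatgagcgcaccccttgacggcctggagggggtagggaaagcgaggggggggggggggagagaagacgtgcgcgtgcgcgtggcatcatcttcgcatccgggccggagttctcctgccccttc

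The highest BAP1 summit at these promoters lay 112 bases before the Nkx1-1 start, 52 before that of Btbd8, 33 before that of Lsm7, 2 before that of Ccdc28a and 247 before that of Vps26b. Their BAP1 summit pileups, the authors' count of extended reads over the summit after scaling to the input, were 34.16, 30.02, 36.23, 36.75 and 34.68 in the same order. The promoters were picked as the highest by BAP1 pileup in their class, so all 5 stood above the list's median of 23.81 by that choice. RNF2 ranged from a peak 5784 bp wide in library 1 at Nkx1-1 to none in the windows of Ccdc28a and Vps26b.

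BAP1 peaks as listed were narrow, and RNF2 peaks included broad domains. The median BAP1 peak was 120 bp wide, with a range of 50 to 3062 bp. RNF2 peaks had a median of 876.5 bp (297 to 60739) in library 1 and 280 bp (100 to 122628) in library 2. No BAP1 peak passed 10 kb, while 94 RNF2 peaks did in library 1 and 205 in library 2. The lists covered 0.543, 6.93 and 24.5 Mb, or 0.0291%, 0.370% and 1.31% of the effective genome length given in the headers.

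The narrowest peak of each list had exactly the fragment length given to the peak caller. The fragment length used was 50 bp for BAP1, 297 bp for library 1 and 100 bp for library 2. For BAP1 that length equals the read length, and the header offers 595 bp as an alternative. The widths, spacing and pileup of the BAP1 list rest on the 50 bp value, and the list with the alternative was not analysed here. In units of the fragment length the median widths were 2.40, 2.95 and 2.80, so the lists' medians were close on that scale. The upper tail was not: the widest BAP1 peak measured 3062 bp, against RNF2 domains over the Hoxb cluster of 60739 bp in library 1 and over the Hoxa cluster of 122628 bp in library 2. Depth also differed, at 414.8 M tags for BAP1 and 58.44 and 149.3 M for RNF2, and its part in the widths was not tested.

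**Figure D1:**
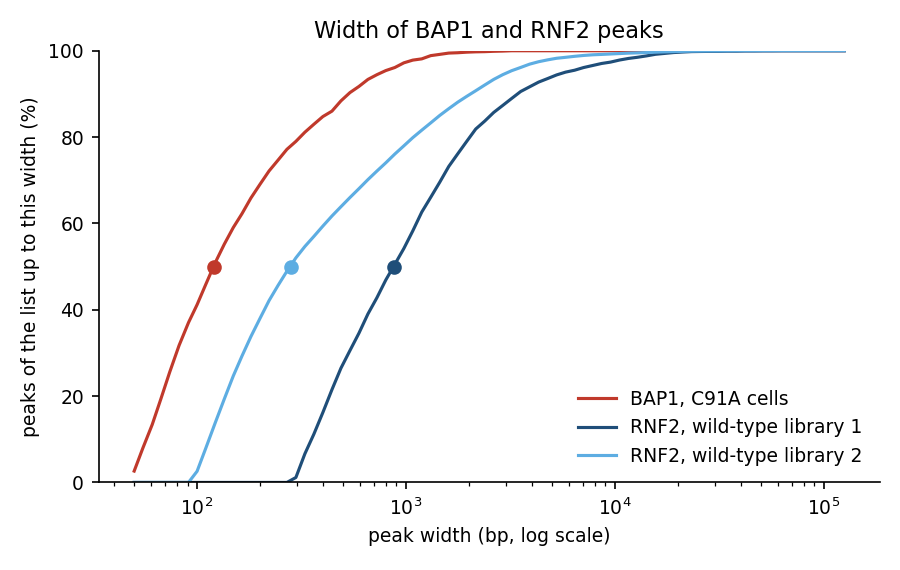
Cumulative share of peaks (y axis, percent of each list) up to a given width (x axis, bp on a log scale) for the BAP1 list of C91A cells and both RNF2 lists. Dots mark the medians of 120, 876.5 and 280 bp, and the BAP1 curve ends at 3062 bp.

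Most BAP1 peaks lay where RNF2 was listed, and few RNF2 peaks held BAP1. Of 2395 BAP1 peaks, 1850 overlapped an RNF2 peak of library 1 by at least 1 bp (77.2%, Wilson 95% interval 75.5 to 78.9) and 2127 one of library 2 (88.8%, 87.5 to 90.01). All 1850 also overlapped library 2. A further 277 (11.6%) overlapped library 2 only, and 268 (11.2%) neither. In the other direction, 493 peaks of library 1 (12.2%) and 682 of library 2 (2.37%) overlapped BAP1. The intervals cover counting error only. None of the BAP1 peaks overlapped the 144 peaks of BAP1 ChIP in BAP1 knockout cells, a control of 32.55 M tags against 414.8 M. The RNF2 knockout library had no peaks, per its label.

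The 3 classes of BAP1 peak were alike in median height and width and differed in their widest peaks and in how they were grouped. Median pileup was 23.81 with RNF2 in both libraries, 24.33 with RNF2 in library 2 only and 24.07 with neither, and median width was 123, 113 and 112.5 bp. The upper quartile of width was 265.8, 189 and 215.2 bp, and the widest peak 3062, 908 and 668 bp. Another BAP1 summit lay within 1 kb for 83.4%, 35.4% and 41.0% of them in that order. Peaks with RNF2 in both libraries thus lay in clusters more often than the rest. The RNF2 peaks of library 2 that held them were broad, with a median width of 7897 bp over 431 peaks and a median pileup at that library's maximum of 200. Those holding the library 2 only class had a median width of 507 bp and a pileup of 35 over 219 peaks.

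Some of the 268 BAP1 peaks without wild-type RNF2 met RNF2 elsewhere in the series, at lower shares than BAP1 peaks as a whole. In BAP1 knockout cells, RNF2 peaks overlapped 4 of them (1.49%) in the first library and 124 (46.3%, 40.4 to 52.3) in the second, deeper one. Of all 2395 BAP1 peaks, 79.75% and 93.19% overlapped these 2 lists. Of the 268, 26.5% had an RNF2 summit of library 2 within 500 bp.

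At the level of whole domains, the summits of both factors lay close together. In the 490 RNF2 peaks of library 1 that held a BAP1 summit, the highest BAP1 summit was a median of 181.5 bp from the RNF2 summit (quartiles 81.2 and 404). The 2 RNF2 libraries gave the measure of how well a summit is placed: in 418 of these peaks the highest summit of library 2 lay a median of 227 bp from that of library 1. BAP1 was the farther of the pair in 218 of 418 peaks (52.2%, 47.4 to 56.9). With library 2 as the frame, the medians were 152 bp for BAP1 (n = 646) and 228.5 bp for library 1 (n = 438), and BAP1 was farther in 219 of 438. Over the same domains, the medians were 190 bp for BAP1 and 227 bp for the other RNF2 library in the first frame (n = 418), and 223.5 and 228.5 bp in the second (n = 438). By count of domains the 2 distances were near even.

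Counted one by one, BAP1 summits were farther away, and each RNF2 peak has 1 listed summit where it may hold several of BAP1. The median distance from a BAP1 summit to the nearest RNF2 summit was 798 bp in library 1 (quartiles 223 and 2782, n = 1850 overlapping peaks) and 692 bp in library 2 (n = 2127). From an RNF2 summit of library 1 to the nearest of library 2 it was 162 bp (n = 4038). At Foxb2, a forkhead gene, the highest BAP1 summit was 9 bp from the RNF2 summit of library 1, and at Nkx2-4 8 bp. In the same domains the library 2 summit was 236 and 309 bp from BAP1.

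Inside RNF2 domains, BAP1 summits lay toward the middle and not at the edges. Position was folded so that 0 is the nearer edge, 1 the middle, and even placement gives a median of 0.5. The median was 0.644 in library 1 (n = 1847) and 0.689 in library 2 (n = 2093), and 68.7% and 75.2% of BAP1 summits lay in the central 50% of the domain. Summits of RNF2 itself in the same BAP1-holding peaks had medians of 0.713 (n = 490) and 0.757 (n = 646). Summits of library 2 inside those library 1 peaks had 0.767 (n = 425). Summits of library 1 inside those library 2 peaks had 0.6155 (n = 836), less central than BAP1 there. Wide domains hold most of the BAP1 summits, so the pooled values weight domain widths differently for each factor, and values by width follow.

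From 1 kb upward, BAP1 summits of library 1 were less central the wider the domain. The median BAP1 position was 0.772 in domains of 1 to 3 kb (n = 201), 0.677 in those of 3 to 10 kb (n = 783) and 0.577 in those over 10 kb (n = 837). The library's own summit in the same BAP1-holding domains was at 0.754, 0.705 and 0.592, so in each of these classes it stood near the BAP1 value. In library 2, BAP1 was less central than the library's own summit in the same 3 classes, at 0.691, 0.797 and 0.65 against 0.841, 0.837 and 0.732. Library 1 summits in those BAP1-holding library 2 domains had 0.803 (n = 24), 0.771 (n = 307) and 0.4645 (n = 496). Against these, BAP1 was less central at 1 to 3 kb and more central in the wider classes. The 26 BAP1 summits in library 1 peaks of up to 1 kb had a median of 0.548. In domains of library 1 with 5 or more BAP1 summits (n = 110), the first to the last summit spanned a median of 51.8% of the width, and in those of library 2 41.6% (n = 122). The BAP1 summits of the widest domains reached close to an edge at Hoxd8, where a summit lay 292 bp from the end of a domain of 40674 bp. Another lay 513 bp from an edge near Dlx5. The deepest was at Hoxb5, 29903 bp from the nearer edge of the domain of 60739 bp.

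BAP1 peaks were packed into a small set of wide RNF2 domains. A BAP1 summit lay in 490 of 4038 peaks of library 1 (12.1%) and in 646 of 28770 of library 2 (2.25%). Of the 490, 156 held 1 summit, 102 held 2 and 232 held 3 or more, and 38 domains with 10 or more held 574 of the 1847 summits. By width, the share of library 1 peaks with BAP1 was 1.03% up to 1 kb, 9.59% at 1 to 3 kb, 62.9% at 3 to 10 kb and 96.8% (91 of 94) over 10 kb. The number of summits per 10 kb was 0.212, 0.917, 3.97 and 5.43 in the same classes, and 0.297, 0.0797, 0.925 and 3.41 in library 2. It rose with each class in library 1, and in library 2 from 1 to 3 kb upward. In library 2, 86.3% of the 205 peaks over 10 kb held BAP1, and the highest number was 70, over the Hoxa cluster.

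Many neighbouring BAP1 summits lay close together, counted over whole chromosomes and not within RNF2 domains. Their listing as separate peaks rests on the fragment length of 50 bp, and the part of that setting was not tested. Of 2375 pairs of neighbouring BAP1 summits on a chromosome, 1207 (50.8%) were at most 1 kb apart and 635 (26.7%) at most 300 bp. The closest pair was 69 bp apart. Joining summits within 300 bp gave 1760 clusters, of which 1298 were single peaks, and the largest held 7.

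The Hox clusters, whose genes set identity along the body axis, led the list of domains. Library 1 had an RNF2 domain of 50.76 kb from Hoxa3 to Hoxa10 with 40 BAP1 summits, whose pileups ran from 20.19 to 34.16 around a median of 24.59. BAP1 peaks covered 18.03% of its length. Domains of 40.67 kb at Hoxd8 to Hoxd13 and 60.74 kb at Hoxb3 to Hoxb9 held 29 and 28 summits. Over the whole clusters with 10 kb on each side, BAP1 had 70 summits at Hoxa, 44 at Hoxb, 39 at Hoxc and 45 at Hoxd, or 5.58, 2.27, 2.87 and 3.85 per 10 kb. All but 1 summit, at Hoxa, lay inside an RNF2 peak of library 1, and all lay inside one of library 2. Hoxa thus carried the most BAP1 summits per length of the 4 clusters.

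Outside the Hox clusters, the densest of the 8 domains with most BAP1 summits belonged to Otx1, a head and forebrain homeobox gene, with 23 summits in 15.29 kb (15.0 per 10 kb). Domains of Nkx2-3 (spleen and gut) and Six3 (forebrain and eye) held 22 and 19 summits. The domain at Cbx8 (25.65 kb) held 29, and BAP1 peaks covered 41.7% of it, the highest share of the 8. The Otx1 and Cbx8 domains were thus filled more densely than the longer Hox domains.

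Domains over 10 kb without a BAP1 summit were 3 in library 1. They lay at Pax6, an eye and neural factor (12.29 kb), at Tnrc18 (10.36 kb, pileup 159.9) and 43655 bp from Gm38821 (17.37 kb). Pax6 had a second RNF2 domain, of 12842 bp, and there BAP1 was listed with 4 peaks in the gene's window and a highest pileup of 23.81. Among the 5 library 1 peaks of highest pileup without BAP1, 3 lay 102 to 105 kb from Esp38, with pileups of 409.4, 375.8 and 313.4 but fold enrichments over background of only 1.24 to 1.40. The other two were Tnrc18 and Bhmg1 (pileup 149.2, fold enrichment 8.34).

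BAP1 was found where RNF2 signal was highest. Of the top decile of library 1 peaks by pileup, 348 of 403 held a BAP1 summit (86.3%, 82.7 to 89.4), and they held 88.5% of all BAP1 summits inside that library's peaks. The share fell to 25.2% in the second decile, 3.22% in the next and at most 2.23% in any later one. Within peaks of 1 to 3 kb, the share was 0.905% in the lowest tercile by pileup, 1.81% in the middle and 26.0% in the highest, while the median width rose from 1250 to 1982 bp. Library 2 gave 14.5% in its top decile, which held 87.8% of the summits, and at most 1.70% below it. Its peaks of 1 to 3 kb did not repeat the trend, with 1.46%, 1.08% and 0.699% from the lowest to the highest tercile.

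**Figure D2:**
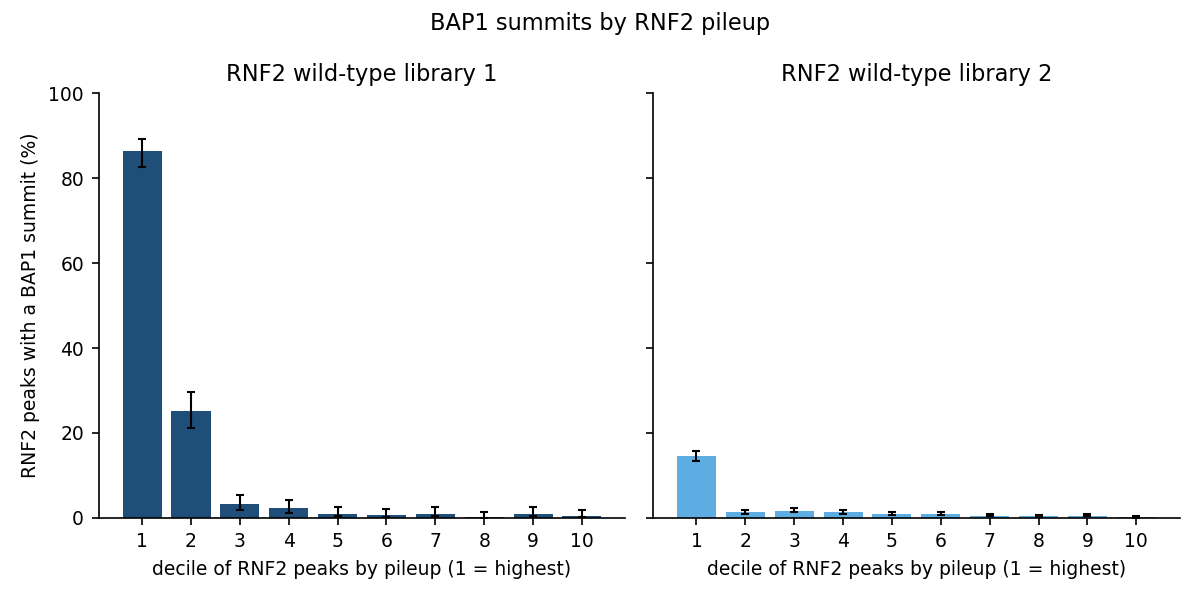
Share of RNF2 peaks that hold a BAP1 summit (y axis, percent, Wilson 95% intervals as bars) by decile of RNF2 summit pileup (x axis, 1 is highest) in wild-type libraries 1 and 2. In both panels the highest decile stands above the rest, at 86.3% and 14.5%.

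The order of pileup within shared domains was similar for BAP1 and RNF2 in library 1 and much less so in library 2. Spearman's rank correlation between the highest BAP1 pileup and the RNF2 pileup was 0.758 over the 490 domains of library 1 and 0.289 over the 646 of library 2, and that of the 2 RNF2 libraries over the first 490 domains was 0.495. Such correlations across sites have points that share copy number, mappability and base composition, and they are given as descriptions. From the 100 shared domains of highest library 1 pileup to the 90 lowest, the median of the highest BAP1 pileup was 32.09, 27.43, 24.85, 23.29 and 22.78 by successive groups of 100. The median fell from each group to the next, by less at each step.

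Most of these sites stood near the highest pileup that library 2 can give. Its peak calling kept 1 tag per position and strand, so that a fragment length of 100 bp limits the pileup to 200, and 466 of the 490 domains (95.1%) stood above 80% of that ceiling, against 6.04% of all its peaks. Over those 466 domains, the rank correlation with BAP1 was 0.776 for library 1 and 0.263 for library 2. For library 1 the ceiling was 425.9 and its highest pileup 409.4. BAP1 pileups had a narrow range as well, from 19.15 to 46.59 under a ceiling of 51.76.

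Other properties of the domain moved with the rank. Where a domain held a single BAP1 summit, the rank correlation was 0.127 in library 1 (n = 156) and -0.240 in library 2 (n = 319). In library 1 the highest BAP1 pileup also ranked with the number of BAP1 summits (rank correlation 0.699), and RNF2 pileup with domain width (0.775). Between BAP1 and RNF2 pileup it was 0.0853 in library 1 domains up to 1 kb (n = 23) and 0.434 at 1 to 3 kb (n = 127). It was 0.7065 at 3 to 10 kb (n = 249) and 0.770 over 10 kb (n = 91). Library 2 gave 0.00434, -0.217, 0.237 and 0.173 in the same width classes. By fold enrichment in place of pileup, the rank correlation was 0.464 in library 1 and 0.128 in library 2. Over the 490 domains of library 1, BAP1 pileup and library 2 fold enrichment are not on the same measure, but BAP1 against that library gave -0.13. In library 1 the rank correlation between the factors was thus lower by fold enrichment and in domains with a single summit than by pileup over all 490 domains. In library 2 it was negative in domains with a single summit.

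**Figure D3:**
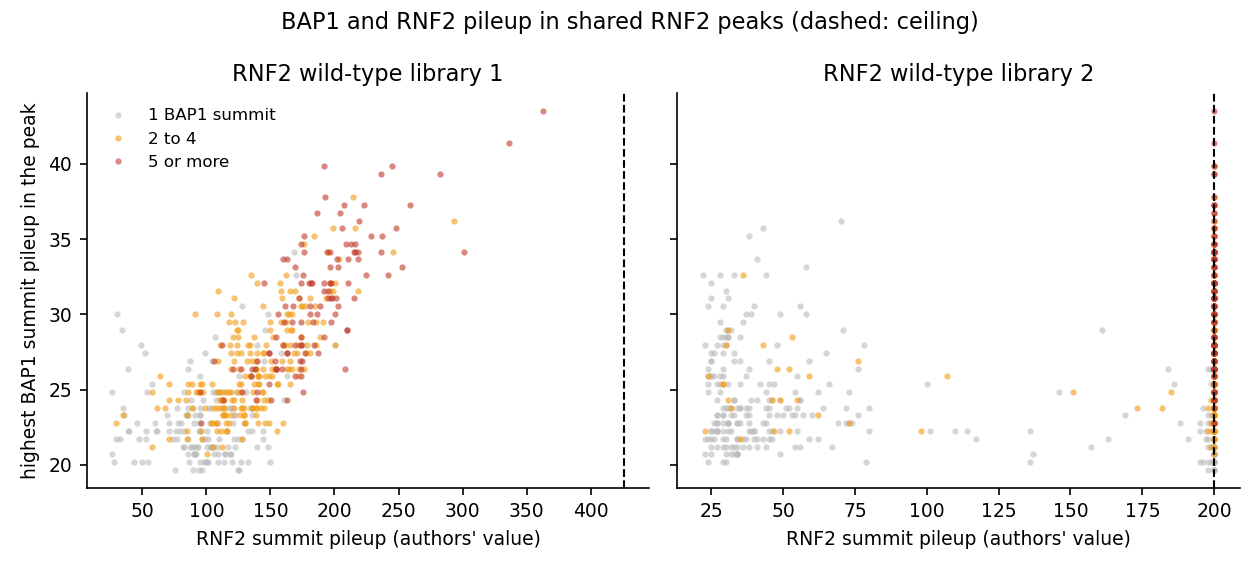
Highest BAP1 summit pileup (y axis) against RNF2 summit pileup (x axis, both the authors' scaled values) in each RNF2 peak that holds BAP1, coloured by the number of BAP1 summits. Points rise together in library 1 (490 peaks, rank correlation 0.758), and in library 2 (646 peaks, rank correlation 0.289) many crowd at the dashed ceiling of 200.

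Single sites went against the common order. RNF2 ranked far above BAP1 in domains nearest to Dnajc22 (RNF2 pileup 149.9, BAP1 20.19), Prdm16 (148.4 and 21.22) and Nr2f2 (139.8 and 21.22), each with a single BAP1 summit. Meis1 and Sema6a completed the 5 with the widest gap. In the opposite direction, Btbd8 had a library 1 pileup of 30.12 in a peak of 385 bp and a BAP1 pileup of 30.02. Mmp15, Zpbp, Zdbf2 and Supv3l1 followed, with RNF2 pileups of 34.42, 48.76, 91.07 and 52.35 and BAP1 pileups of 28.99, 27.95, 30.02 and 27.43. The RNF2-led domains were 3560 to 14853 bp wide. Their RNF2 summits lay 2006 bp or more from the nearest gene start, or gene end where no start is known. The BAP1-led sites were mostly short peaks with summits within 694 bp of such a point.

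BAP1 and RNF2 were listed at the same lineage regulators. A gene was counted where a peak overlapped the window of 1 kb on each side of its start, or of either gene end for the 4287 of 21779 protein-coding genes with no start in the reference. BAP1 was listed at 852 genes (3.91%), RNF2 in both libraries at 2486 (11.4%) and both factors at 382 (1.75%), so 15.4% of the RNF2 genes had BAP1. BAP1 without RNF2 in either library was at 151 genes (0.693%). The gene lists below were compared with these shares.

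Of 39 Hox genes, 34 had BAP1 and 38 had RNF2 in both libraries, and all 34 had both. Among those with RNF2 and no BAP1 were Hoxb1, Hoxb3 and Hoxb13. Neighbouring Hox genes share RNF2 domains, so they are not separate observations. The highest BAP1 pileups of the list were 37.27 at Hoxd11 and Hoxd13, 36.75 at Hoxd9 and 34.16 at Hoxa10, Hoxa11 and Hoxb2.

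Of 61 neural and homeobox regulators, 42 had BAP1, all with RNF2, and 56 had RNF2 in both libraries. Among them were Otx1 (39.34), Irx5 and Nkx2-4 (37.79 each) and Zic1, a cerebellar zinc-finger factor (37.27). Of 53 mesoderm and endoderm regulators, 34 had BAP1 and 49 RNF2, with both at all 34. They were led by Hand2, a heart and limb factor (39.86), the forkhead gene Foxb2 (39.34) and the lung and gut mesenchyme gene Foxf1 (37.27). In these 2 lists RNF2 genes with BAP1 had a median library 1 pileup of 182.5 and 176, and those without one of 85.3 and 87.5. Gata4, Pdx1 and Tfap2b were among the exceptions, with library 1 pileups of 149.2, 127.6 and 162.8 and no BAP1.

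High BAP1 pileup was found at the Polycomb gene Cbx8, but not across the list of Polycomb genes. A peak 16067 bp from Cbx8, in the domain described above, had a BAP1 pileup of 41.41 and a library 1 RNF2 pileup of 336.3. CBX8 is a chromodomain subunit that brings Polycomb repressive complex 1 to methylated histone H3. Within gene windows, 6 of 35 Polycomb genes had BAP1, among them Cbx8 (37.27), Cbx2 (24.85), Bmi1 (24.33), Ezh1 (20.71) and Pcgf5 (20.19), and of the 6 all but Ezh1 had RNF2 in both libraries. The median BAP1 pileup of the 6 was 24.59, against 24.85 at all genes with BAP1. Cbx2 and Cbx8 are neighbours on chromosome 11. Of 12 genes of BAP1 and its partners, none had BAP1 and 2, Bap1 and Asxl3, had RNF2 in both libraries.

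Signalling genes, like all genes, had RNF2 more often than BAP1, and their share with BAP1 was above that of all genes. Of 44 ligands and receptors, 34 had RNF2 in both libraries and 9 also BAP1: Ihh (30.02), Fgf9 (27.95), Wnt5a and Fgf3 (24.33 each), Bmp6 and Wnt7b (23.81 each), Bmp2 (23.29), Fgf8 (22.26) and Wnt11 (21.22). The median library 1 pileup was 108.3 at these 9 and 56.65 at the 25 without BAP1. BAP1 was at 20.5% of the 44 genes, against 3.91% of all genes. Of the 34 with RNF2 in both libraries 26.5% had BAP1, against 15.4% of all such genes. Shh, a patterning ligand, had an RNF2 pileup of 152 in a peak of 5008 bp and no BAP1.

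Germ cell genes mostly had RNF2, in a list too short to set 0 of 20 with BAP1 apart from the 3.91% of all genes. Of 20, 16 had RNF2 in both libraries, among them the meiosis genes Stag3 and Sycp1. BAP1 was at 15.4% of all genes with RNF2 in both libraries and at 0 of these 16. Their library 1 pileups had a median of 56.29, and 2 of the 16, Ddx4 (120.5) and Zcwpw1 (111.2), reached 108.3, where the top decile begins. Of Hox genes 37 of 38 did, and 34 of these had BAP1. For the neural list 42 of 56 did, 39 with BAP1, and for the signalling list 11 of 34, 6 with BAP1. Below that limit BAP1 was at 0 of 1 Hox, 3 of 14 neural and 3 of 23 signalling genes. RNF2 pileup and BAP1 thus went together within the neural and signalling lists as well.

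The lists of pluripotency factors, housekeeping genes and markers of other cells are short against the 3.91% of all genes with BAP1, and their counts are near that share. None of 20 pluripotency factors, 15 housekeeping genes, or 14 muscle and liver markers had a BAP1 peak. RNF2 was in both libraries at 3 pluripotency genes, Tbx3, Esrrb and Prdm14, with library 1 pileups of 87.48, 79.6 and 65.25. Of 12 fibroblast markers, Pdgfra alone had BAP1 (29.51), with RNF2. Peaks measure binding and not expression, so these lists do not check the cells' identity.

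**Figure D4:**
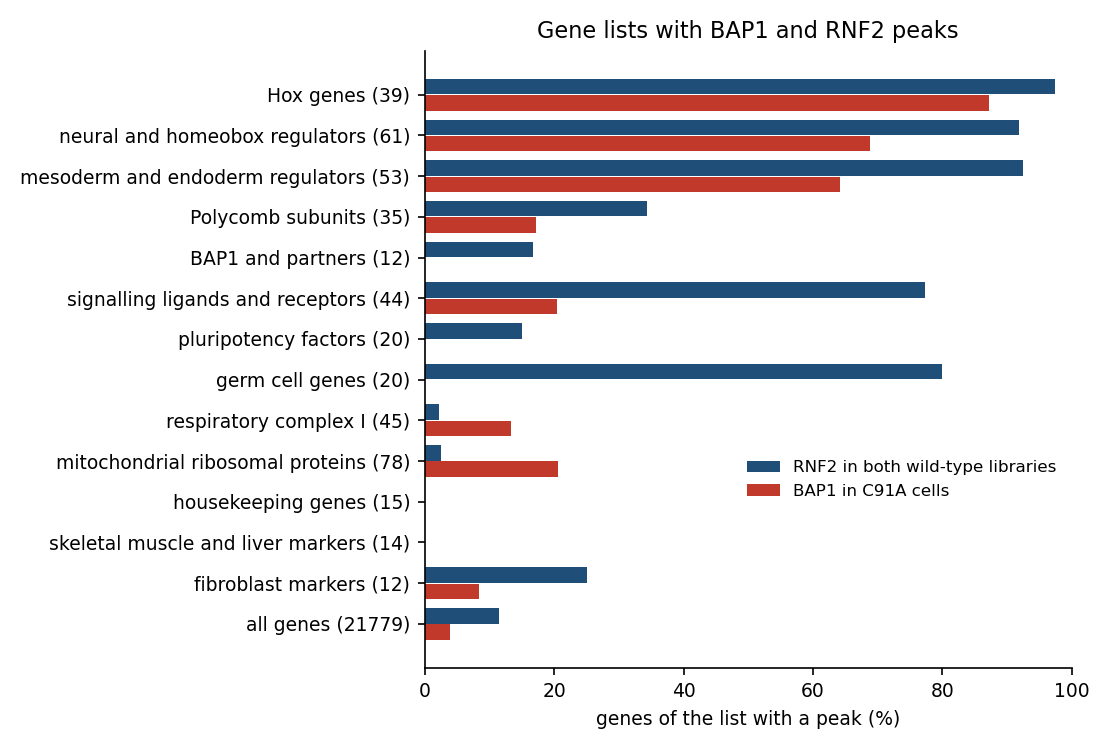
Share of genes (x axis, percent) with an RNF2 peak in both wild-type libraries and with a BAP1 peak, for each of 13 gene lists and all 21779 genes (number of genes in brackets). BAP1 reaches 34 of 39 Hox genes, against 3.91% of all genes, and exceeds RNF2 at respiratory complex I and mitochondrial ribosomal protein genes.

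BAP1 peaks outside library 1 RNF2 peaks lay nearer to transcription starts in the reference than those inside. BAP1 summits with RNF2 in both libraries were a median of 3336 bp from the nearest start, 28.4% of them within 1 kb. Those with RNF2 in library 2 only were at 180 bp (78.8% within 1 kb) and those with neither at 172.5 bp (79.2%). RNF2 summits of library 1 were at 2212 bp in peaks with BAP1 and 1577 bp in peaks without. A larger share of BAP1 summits thus lay near a listed start where library 1 listed no RNF2. The reference gave starts for 22 of 39 Hox genes and 69 of 78 mitochondrial ribosomal protein genes. Summits at a gene without a start were measured to another gene's start. This can lengthen the distances of the class with RNF2 in both libraries, and its part was not tested.

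**Figure D5:**
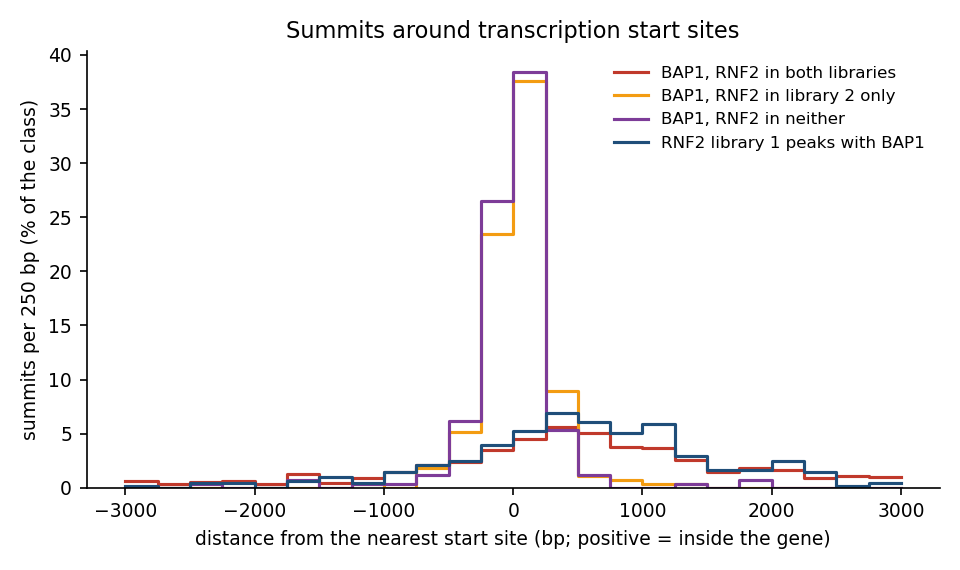
Share of summits per 250 bp (y axis, percent of each class) by distance from the nearest start site in the reference (x axis, bp, positive inside the gene). Genes without a listed start are left out. BAP1 summits with RNF2 in library 2 only or in neither library peak in the 250 bp after the start (37.5% and 38.5%), where the class with RNF2 in both libraries has 4.55%.

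Some genes of mitochondrial protein complexes belonged to these classes, 15 of the 151 with BAP1 and no RNF2. Of 78 mitochondrial ribosomal protein genes, 16 had BAP1 (20.5%, against 3.91% of all genes), 0 of them had RNF2 in both libraries and 9 had no RNF2 in either. Of 45 genes of respiratory complex I and its assembly, 6 had BAP1, all without RNF2 in either library: Ndufb5, Ndufc1 and Ndufs7 (26.4 each), Ndufaf5 (23.81), Ndufa12 (23.29) and Ndufaf1 (22.78). Mrpl48 (30.54), Mrpl43 (28.99), Mrpl34 and Mrps28 (28.47 each) led the ribosomal list. Ndufb5 and Mrpl47 are neighbours with the same BAP1 pileup and are not separate observations. The median BAP1 pileup was 25.1 in both mitochondrial lists, against 27.43 at Hox genes.

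Among all BAP1 peaks without RNF2, the 5 highest were 2 promoter peaks and 3 peaks in 1 place. Slu7, a splicing factor, and Auh, a leucine breakdown enzyme, each had a pileup of 37.79 and a fold enrichment of 5.75. These summits lay 94 and 136 bp from the nearest listed start or gene end. The others lay about 46 kb from Mvb12b within 500 bp of each other, with pileups of 46.59, 40.38 and 37.27 and fold enrichments of 2.80, 3.18 and 3.93. That place thus had the list's highest pileup, with folds on both sides of the list's median of 3.47.

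Promoter sequence differed between the classes. In the windows of 300 bases, CCGGAAG was in 8.63% (interval 5.01 to 14.5) of 139 promoters with BAP1 and RNF2 in both libraries, in 41.6% (34.5 to 49.1) of 173 with RNF2 in library 2 only and in 45.0% (37.3 to 53.0) of 151 with BAP1 and no RNF2. Over all 21238 promoters it was in 11.6%. GCCATNTT was in 2.16%, 14.5% and 31.1% of the same classes and 6.36% of all. Both motifs were thus more frequent where BAP1 lay outside library 1 RNF2 peaks, and promoters with RNF2 in both libraries and no BAP1 had them in 7.83% and 2.76%.

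The other motifs set the classes apart less. TGTTTAC was in 3.597%, 6.94% and 8.61% (5.1 to 14.2), against 2.999% of all promoters. CACGTG was in 12.2%, 12.1% and 4.64%, against 7.84%, and the NRF1 motif in 2.16%, 2.31% and 1.32%, against 1.33%. The intervals of the 3 classes overlapped for each of these motifs. The median number of CG dinucleotides in the window was 25, 28 and 20, against 13 for all promoters. Without BAP1, promoters with RNF2 in both libraries, in library 2 only and in neither held TGTTTAC in 1.54%, 1.80% and 3.65%. Base composition and distance to the start differ between the classes along with the motifs, and their part was not tested.

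The printed promoters vary within each class. The Lsm7 window holds GCCATNTT as its reverse complement just after the start. Ccdc28a holds CCGGAAG and TGTTTAC as reverse complements, and Vps26b holds TGTTTAC and no CCGGAAG. Of the promoters with RNF2 in both libraries, Nkx1-1 holds CACGTG only and Btbd8 holds CACGTG along with matches to CCGGAAG and, on the other side of the E-box, to TGTTTAC. A match is a description of these letters and not a bound site.

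On chromosome X, BAP1 was rare. It had 4 of 2395 BAP1 peaks (0.167%) and 107 of the 4038 RNF2 peaks of library 1 (2.65%). Of those 107, 2 held BAP1 (1.87%), against 7.29% to 17.4% per autosome (median 12.4%). RNF2 pileup was lower there too, with a median of 32.99 and a maximum of 106.8, against 42.31 and 409.4 on autosomes, so 0 of the 107 reached the 108.3 from which the top decile begins. The part of the lower RNF2 pileup in the rarity of BAP1 was not tested.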

How the data were processed

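The members and gene lists were chosen with earlier results of these data known. Single-end reads of 50 bp from chromatin sheared to 200 to 700 bp, per the labels' protocols, were aligned by GSNAP to GRCm38 (mm10) according to the submitters' processing notes, in a version not given in the sources used here. The authors ran MACS2 on every ChIP library with its own input as background and listed peaks below a q-value of 0.05, per the file headers (version 2.1.0.20150420 for BAP1 and RNF2 library 1, 2.1.1.20160309 for library 2). The deposited lists give each peak's pileup signal at the summit, its fold enrichment (a ratio) and its −log10 p and q-values. These are the authors' values and were ranked only within a list. Pileup had been scaled by the authors to the smaller of ChIP and input. Inputs held 214.7, 41.91 and 162.1 M tags. An RNF2 domain is an RNF2 peak as listed. Distances to a named gene run from the summit to its nearest start, or to the nearer gene end where the reference has no start. A summit inside a gene can thus have a distance above 0.

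Overlap, distance and position were computed in Python 3.11.15 with pandas 2.3.3 and numpy 2.4.6, tested on simulated peaks with known answers. Shares carry Wilson 95% intervals, and no test across libraries was made. Start sites, promoter sequences and gene positions came from RefSeq GRCm38.p6 tables, which gave starts for 17492 of 21779 protein-coding genes (80.3%) and none for chromosome 18. Left out were 108 genes placed within 3 Mb of a chromosome's first base, Y excepted. Named are the 10 highest BAP1 peaks with RNF2 in both libraries and the 5 highest with none, the 8 domains with most BAP1 summits, the 5 highest domains without BAP1, the 5 widest rank gaps each way, the 3 nearest to and 3 farthest from a domain edge, the Hox clusters, and up to 4 members per gene list by BAP1 pileup. Genes outside this rule, such as Gata4, Shh and Ddx4, were chosen after their values were seen. A few genes that this rule names are not reported here. The printed promoters are the highest by BAP1 pileup (2, 1 and 2 per class) among windows that hold the BAP1 summit.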

Additional observations from a re-analysis of the deposited data

How the results depend on the processing

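Of 51 alternative values for 9 results, 44 moved by less than the spread used (the SD between the 2 RNF2 libraries, or the Wilson interval of a share; genes by 1.5 times) and 7 by more. That SD is wide, since it rests on 2 libraries that differ in depth and settings, and it makes each single library's value count as within it. With library 2 cut to its 4038 highest peaks, RNF2 peaks were on average 14.1 times as wide as BAP1 peaks by median, against 4.82, and the summit distance was 881 bp against 745. With only peaks of −log10 q of at least 5, that distance was 508 bp, 41.4% against 59.4% of BAP1-holding domains had 2 or more summits, and the width ratio was 1.79. With peak middles in place of summits the distance was 1444 bp. Leaving out each RNF2 library gave 2.33 to 7.30 for the width ratio, 692 to 798 bp for the distance, 50.6 to 68.2% for 2 or more summits, 2.25 to 12.1% for domains with BAP1, 0.644 to 0.689 for position and 0.289 to 0.758 for the rank correlation. It gave 77.2 to 88.8% for overlap with every RNF2 list used, 382 to 701 for genes with both factors and 43.2 to 45.0% for CCGGAAG. With library 2 peaks over 80% of the pileup ceiling left out (chosen after seeing the data, like the alternatives for promoter sequence and the genes without each library), the rank correlation in library 2 was -0.07. Domains merged within 3 kb kept the position at 0.670. No paired analysis was possible because BAP1 in C91A cells had 1 library and no result came from a test. Library 1 listed fewer peaks than library 2 from fewer tags and with other settings, and the part of depth was not tested.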
